A study of Caenorhabditis elegans with 12 samples.

Results

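The heterochronic genes lin-14, lin-28, hbl-1, lin-41, lin-42, lin-46 and lin-29 are described here, 7 of the 46726 genes in a table of N2 larvae. They were taken by name, as core members of the pathway that times larval development. Wild-type N2 worms were hatched together, grown with bacteria in liquid culture and divided at 6 h after hatching into 6 cultures. Of these, 3 received an equal mixture of 3 dauer-inducing ascarosides (ascr#8, ascr#3 and ascr#2) dissolved in ethanol (ascaroside libraries 1 to 3), and 3 received ethanol alone (control libraries 4 to 6). RNA was taken after 3 h of exposure, at the late L1 stage. The sample labels give 5 µM of total ascaroside and the study's methods give a lower concentration. Both groups were fed wild-type animals, and the daf-22(ok693) cultures of the series were not analysed here. Because the cultures came from one hatched population, p-values measure the spread between cultures of that population only.

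Heterochronic genes decide which larval stage a cell behaves as. Early in development LIN-14, LIN-28 and HBL-1 hold cells in the programs of the first and second larval stages. The microRNAs lin-4 and the let-7 family then lower them, after which LIN-46 and at last LIN-29 act. Worms that take the dauer route from L1 pass through L2d, a longer second larval stage, and several heterochronic genes are known to be under other control along that route. Much of this control acts on translation and on protein, which RNA counts do not show.

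Values are normalized counts, the authors' gene-level reads scaled by 1 size factor per library. The libraries held between 11133417 and 19116807 reads on genes. Control library 4 stood apart from the other controls. The number of genes called between the groups moved from 527 to 1436 of 14965 without it, and the median SD of log2 values was 0.235 over the 3 controls and 0.152 over the ascaroside libraries. In bulk RNA, fewer cells of a type and less RNA per cell cannot be told apart. Counts are per gene, so the isoforms of lin-42 (7 annotated transcripts), lin-41 (4) and lin-29 (3) were not separated.

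All 7 genes were detected in all 6 libraries, with lin-42 highest and lin-46 and lin-29 lowest per length. Levels between genes are given as RPKM, reads per kilobase of annotated exon scaled to the reads on genes of each library. lin-42, a relative of the clock gene Period, was highest with a mean of 95.8 RPKM over the 6 libraries (range 68.1 to 126.7), above 93.1% of 14803 tested genes with a known length. lin-28, an RNA-binding protein that blocks maturation of let-7, followed with 54.6 RPKM (range 45.9 to 61.6). lin-41, a TRIM-NHL RNA-binding protein and a target of let-7, had 42.1 RPKM (range 34.8 to 50.04). The ranges of lin-28 and lin-41 overlapped across libraries, although lin-28 was higher in 6 of 6 libraries. lin-14, a DNA-binding regulator of first-stage fates, had 24.7 RPKM (range 17.7 to 29.6). hbl-1, the relative of the fly gap gene hunchback, had 11.1 RPKM (range 9.07 to 14.1). The genes that act late were lowest. lin-46, related to the cofactor enzyme gephyrin, had 4.06 RPKM (range 3.12 to 5.00), and lin-29, the zinc finger factor of the switch to adult fates, had 2.88 RPKM (range 1.75 to 3.95), above only 27.7% of tested genes. The levels of lin-46 and lin-29 overlapped, and lin-46 was higher in 5 of 6 libraries. Every other pair of neighbours in this order was separated in range.

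**Figure D1:**
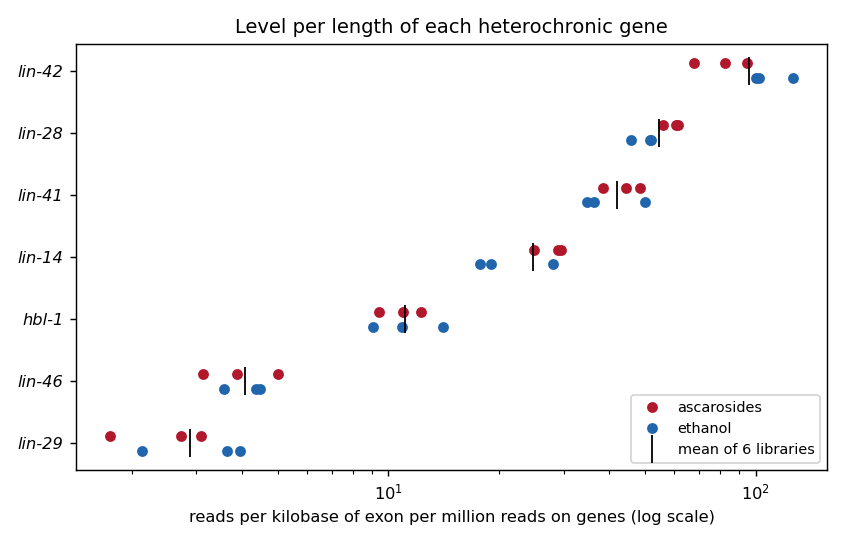
Level per length of each heterochronic gene in the 6 N2 libraries, in RPKM (reads per kilobase of exon, scaled to the reads on genes of the library) on a log axis; points are libraries, red with ascarosides and blue with ethanol, and vertical ticks are means of 6 libraries. lin-42 leads at 95.8 and lin-29 is last at 2.88, with lin-28 and lin-41 overlapping and lin-46 and lin-29 overlapping.

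The comparison of ascaroside with control cultures asks whether the timing genes themselves had responded within 3 h of pheromone. At an adjusted p under 0.05 in limma 0 of the 7 were called, against 3.52% of all tested genes. edgeR on recovered reads also called 0 and DESeq2 called 1, lin-42, in a fit that called 4.24% of genes. At an unadjusted p under 0.05, 3 of the 7 passed (lin-14 and lin-28 higher, lin-42 lower), where 15.2% of tested genes did. The groups did not overlap for 2 of the 7, lin-28 and lin-42, against 19.3% of tested genes. The median log2 fold change of the 7 genes was -0.031, beside 0.0019 over all tested genes. A single gene compared between 3 and 3 cultures cannot go below an exact permutation p of 0.1 (two-sided), and lin-28 and lin-42 had that value.

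**Figure D2:**
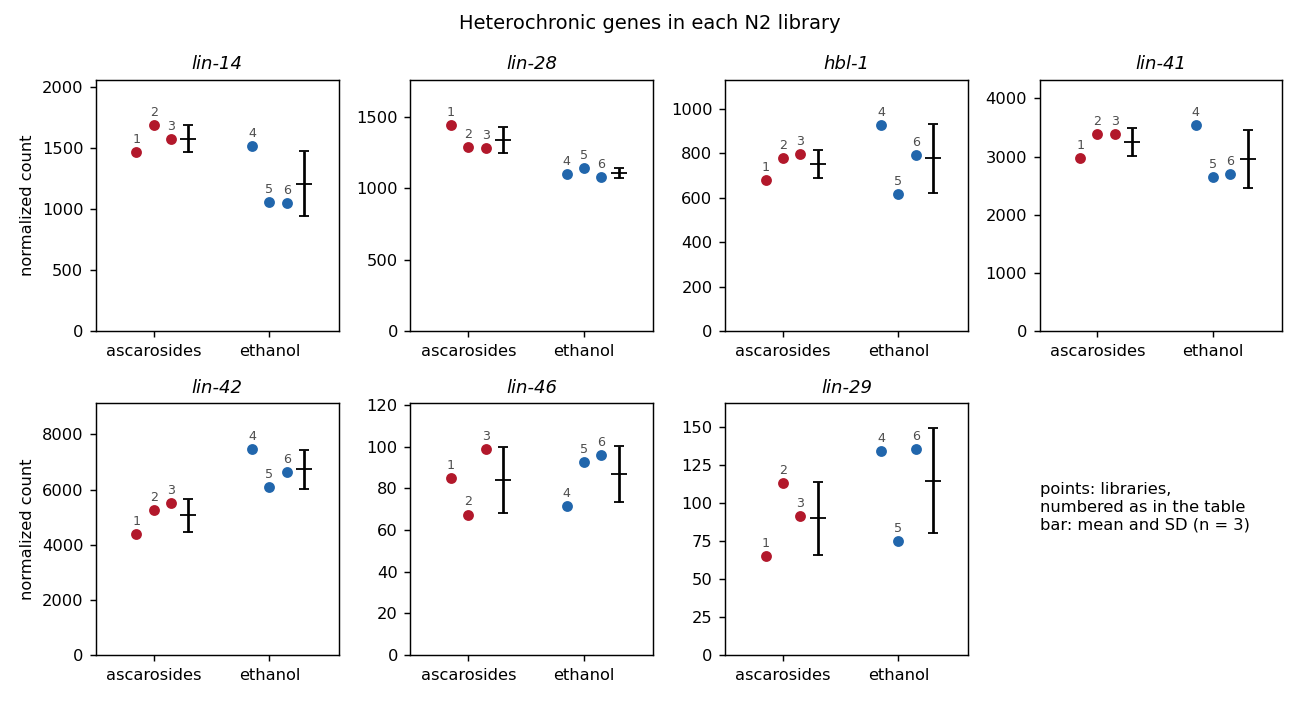
Normalized counts of the 7 heterochronic genes in each library, with ascaroside libraries 1 to 3 in red and ethanol libraries 4 to 6 in blue; black bars are the mean and SD of 3 libraries. The groups are separated for lin-28 (higher with ascarosides) and lin-42 (lower with ascarosides), and control library 4 lies near the ascaroside libraries for lin-14.

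lin-42 had the smallest p-value among the 7 genes, and its difference was close in size to that of lin-14, which had the smaller p-value without control library 4. lin-42 paces the moults and its RNA is known to cycle once per larval stage. It had 4396, 5263 and 5517 normalized counts in ascaroside libraries 1 to 3, against 7477, 6089 and 6628 in control libraries 4 to 6. Each ascaroside library was below each control library. The group means were 5058 ± 588 with ascarosides and 6731 ± 700 with ethanol (SD, n = 3 each). The fold was 0.75 with a 95% interval of 0.63 to 0.89, a log2 fold change of -0.41 (standard error 0.12). Its adjusted p was 0.0733 in limma, which misses the threshold, and its unadjusted p of 0.00311 ranked 635 among the 14965 genes. The call was made with quantile normalization (adjusted p = 0.0227 in limma, with 3.3% of genes called) and with DESeq2 (adjusted p = 0.0241), and the direction was the same in all alternatives tried.

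lin-14 and lin-28 both had higher means with ascarosides, and neither passed the adjusted threshold. lin-14, whose protein is at its peak in newly hatched larvae and is lowered by lin-4 at the end of L1, had 1467, 1687 and 1574 normalized counts with ascarosides, against 1515, 1057 and 1053 with ethanol. Control library 4 lay within the range of the ascaroside libraries, and control libraries 5 and 6 lay well below all 3 of them. The means were 1576 ± 110 with ascarosides and 1208 ± 266 with ethanol (SD, n = 3 each). limma gave a log2 fold change of 0.40 with standard error 0.13 (adjusted p = 0.130), and a 95% interval for the fold of 1.09 to 1.61. Among the annotated overlaps, 2 snoRNA genes on the same strand share 2.95% and 2.70% of lin-14 exon length.

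lin-28 showed the tightest values of the 7 genes. It had 1443, 1292 and 1284 normalized counts with ascarosides, against 1102, 1144 and 1080 with ethanol, so that the lowest ascaroside library was above the highest control. The SD was 6.67% of the mean with ascarosides and 2.94% with ethanol. The fold was 1.21 with a 95% interval of 1.04 to 1.41, and the log2 fold change 0.27 (standard error 0.11). The adjusted p was 0.205 in limma and lay between 0.182 and 0.387 in the alternatives that kept all libraries.

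For lin-41 and hbl-1 the difference between groups was within the spread of the cultures. lin-41, which is known to hold back lin-29 and mab-10 until let-7 rises, had 2976, 3386 and 3387 normalized counts with ascarosides, against 3542, 2647 and 2707 with ethanol. Control library 4 was the highest of the 6 and the other controls the lowest. The difference on the log2 scale was 0.14 with standard error 0.12 (adjusted p = 0.642 in limma), with a 95% interval for the fold of 0.92 to 1.32. Leaving out control library 4 gave 0.28 (adjusted p = 0.0682 in limma) and leaving out control library 5 gave 0.067. hbl-1, which holds the second-stage program and is lowered by the let-7 family, had 681, 780 and 798 normalized counts with ascarosides, against 927, 616 and 791 with ethanol. Its controls held both the highest and the lowest value. On the log2 scale hbl-1 differed by -0.031 with standard error 0.139 (adjusted p = 0.9504 in limma), and the 95% interval for the fold was 0.80 to 1.20.

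The late genes were read at low counts and less precisely. lin-46, which acts after lin-28 and limits HBL-1, had 85.1, 67.5 and 99.1 normalized counts with ascarosides, against 71.6, 92.8 and 96.3 with ethanol. These rest on at least 71 reads per library, and the values of both groups covered nearly the same range. limma put the log2 fold change at -0.055 with standard error 0.219 (adjusted p = 0.941), with a 95% interval for the fold of 0.70 to 1.32. lin-29 had 64.9, 113 and 91.3 normalized counts with ascarosides, against 134, 74.6 and 136 with ethanol, from 70 to 172 reads per library. Control libraries 4 and 6 were highest and control library 5 was among the lowest. For lin-29 the log2 fold change was -0.33 with standard error 0.25 (adjusted p = 0.592 in limma). Without control library 5 it was -0.62 and without ascaroside library 1 it was -0.12. The 95% interval for its fold was 0.55 to 1.15, which was wide and included no change.

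**Figure D3:**
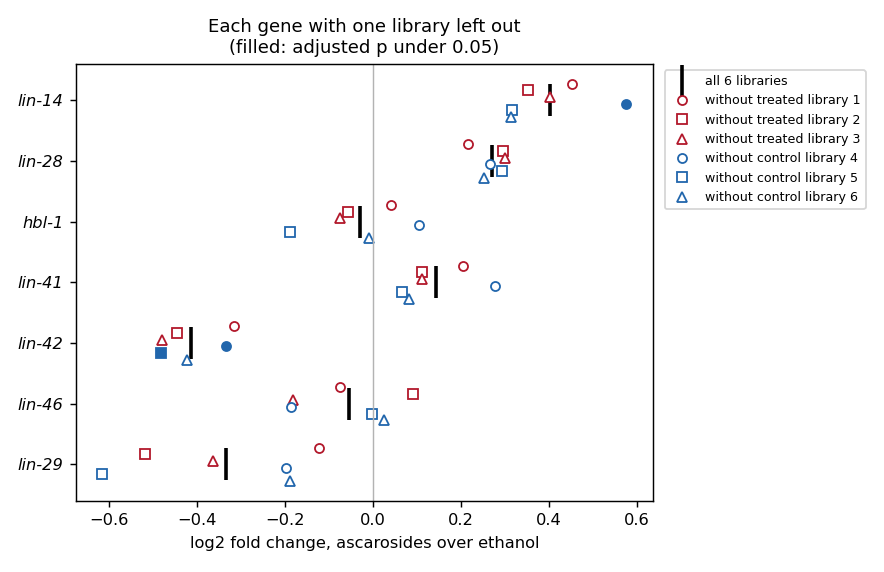
Log2 fold change (ascarosides over ethanol) of each heterochronic gene with all 6 libraries (black ticks) and with each library left out in turn (red, without an ascaroside library; blue, without a control library); filled symbols have an adjusted p under 0.05 in limma. lin-14 is called only without control library 4 and lin-42 without control library 4 or 5, while hbl-1 and lin-46 lie on both sides of 0.

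Single libraries decided which of these genes were called. Without control library 4 the log2 fold change of lin-14 was 0.58 (adjusted p = 0.00053 in limma) and that of lin-42 was -0.34 (adjusted p = 0.0371), in a fit that called 9.6% of all genes. Without control library 5 lin-42 was also called, at -0.48 (adjusted p = 0.0351 in limma, with 3.74% of genes called). Without any other library 0 of the 7 were called in limma, and the adjusted p of lin-42 reached 0.425 without ascaroside library 1. lin-14, lin-28 and lin-41 had positive values and lin-42 and lin-29 negative values whichever library was left out. For lin-14, lin-41 and hbl-1, control library 4 was 1.44, 1.32 and 1.32 times the mean of control libraries 5 and 6, while for lin-28 it was 0.991 times that mean.

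Ratios of genes within a library do not depend on its size factor. These pairs were chosen after the values were seen, and no test is given. The lin-14 to lin-42 ratio was 0.334, 0.321 and 0.285 with ascarosides, against 0.203, 0.174 and 0.159 with ethanol. The lin-28 to lin-42 ratio was 0.328, 0.245 and 0.233 with ascarosides, against 0.147, 0.188 and 0.163 with ethanol. In both ratios all 3 ascaroside libraries were above all 3 controls. The lin-28 to lin-42 ratio could not have come out otherwise, since each gene alone already separated the groups, in opposite directions. The hbl-1 to lin-42 ratio was also higher in all 3 ascaroside libraries than in all 3 controls. It was 0.155, 0.148 and 0.145 with ascarosides, against 0.124, 0.101 and 0.119 with ethanol. hbl-1 itself differed by -0.031 on the log2 scale, so this ratio largely repeats the values of lin-42. All 3 ratios to lin-42 share that gene and are not separate observations. How often other gene pairs separate the groups was not counted. The lin-41 to lin-14 ratio was lower in all 3 ascaroside libraries (2.03, 2.01 and 2.15) than in all 3 controls (2.34, 2.51 and 2.57). The lin-14 to lin-28 and lin-28 to lin-46 ratios overlapped between the groups.

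Mature microRNAs were not measured, since the libraries were made from polyadenylated RNA and size-selected. The rows of lin-4, mir-48, mir-84 and mir-241 had 0 reads in all 6 libraries, from which nothing can be read about these short genes. The let-7 gene, whose annotation holds a long primary transcript, had 113, 96.0 and 69.1 normalized counts with ascarosides, against 114, 89.6 and 99.7 with ethanol. The groups overlapped, at a log2 fold change of -0.15 (adjusted p = 0.807 in limma, standard error 0.22). C05G5.7 on the same strand covers 6.41% of let-7 exon length and had a mean of 289 normalized counts. C05G5.8 on the opposite strand covers 7.97%, and the library kit does not mark strand. Which let-7 transcript the authors' annotation held is not stated, so the source of these counts is uncertain. A list of 14 genes that make or carry microRNAs held the Argonautes alg-1 and alg-2, their partners ain-1 and ain-2, dcr-1 and others. Of the 14, 0 were called in limma, edgeR or DESeq2, where limma called 3.52% of all tested genes. At an unadjusted p under 0.05 in limma 0 of the 14 passed, against 15.2% of all tested genes. The median log2 fold change of the 14 was -0.086, from -0.28 for dcs-1 to 0.29 for nhl-2.

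Among 19 tested genes of a list of other heterochronic regulators, 1 was called, against 1.46% of all genes called as lower and 2.06% as higher. It was lep-5, a long noncoding RNA known for promoting the switch from juvenile to adult fates, together with the makorin LEP-2, by lowering LIN-28. lep-5 had 65.7, 70.3 and 53.5 normalized counts in ascaroside libraries 1 to 3, against 165, 210 and 337 in control libraries 4 to 6. All 3 ascaroside libraries were far below all controls, which spread widely among themselves. lep-5 fell with a log2 fold change of -1.84 and standard error 0.23 (adjusted p = 0.000204 in limma). With one library left out it lay between -2.07 and -1.55, with an adjusted p of 0.0030 or less in limma. No annotated gene shares its exons, and it was read with 41 to 301 reads per library. The one alternative that ended the call was the eBayes step without the trend of variance on expression, where 1 gene of the whole table was called (adjusted p = 0.0985 for lep-5).

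**Figure D4:**
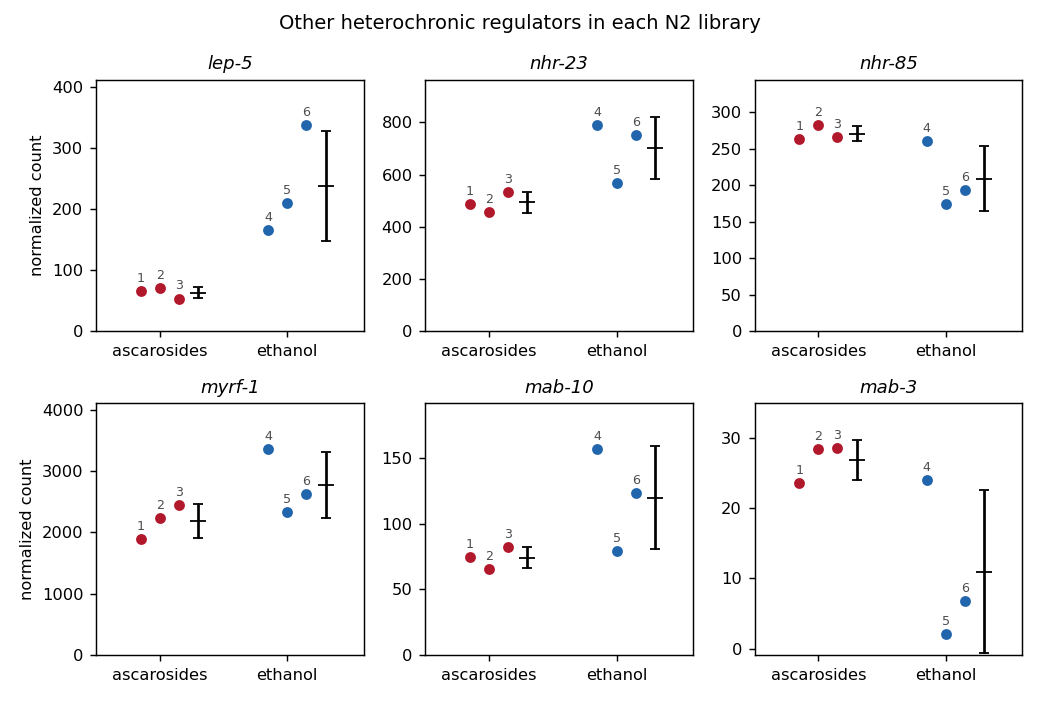
Normalized counts of 6 other heterochronic regulators in each library, with ascaroside libraries 1 to 3 in red and ethanol libraries 4 to 6 in blue; black bars are the mean and SD of 3 libraries. The groups are separated for lep-5 (54 to 70 with ascarosides, 165 to 337 with ethanol), nhr-23 and nhr-85, and overlap for myrf-1, mab-10 and mab-3.

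The other 18 regulators missed the threshold in limma, with 5 of them at an unadjusted p under 0.05 (2 higher and 3 lower), against 15.2% of all tested genes. nhr-23, a nuclear receptor that drives the moulting cycle, came closest. It had 489, 456 and 535 normalized counts with ascarosides, against 790, 567 and 752 with ethanol, with no overlap between groups. In limma this was a log2 fold change of -0.50 with an adjusted p of 0.0533 (standard error 0.14). nhr-23 was called by edgeR (adjusted p = 0.0429) and DESeq2 (adjusted p = 0.0216), and in limma without control library 5 (adjusted p = 0.00367). Among other limma settings it was not called with quantile (adjusted p = 0.0725) or upper-quartile scaling (0.0647) or without the variance trend (0.307). Leaving out any library except control library 5 gave an adjusted p of 0.0545 to 0.297 in limma. nhr-85, a nuclear receptor of the Rev-Erb type, had 263, 282 and 266 normalized counts with ascarosides, against 260, 174 and 194 with ethanol (log2 fold change 0.39, adjusted p = 0.243 in limma). It was called without control library 4 (0.56, adjusted p = 0.0227 in limma), and was 0.27 without control library 5. A gene on the opposite strand covers 33.2% of nhr-85 exons, and the library kit does not mark strand, so its counts are uncertain. myrf-1, a membrane-tethered transcription factor needed for moulting, had a log2 fold change of -0.33 (adjusted p = 0.231 in limma).

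mab-10 and mab-3, both regulators of late fates that LIN-41 is known to keep low, differed in opposite directions and were not called. mab-10, the cofactor of LIN-29, had 75.0, 65.6 and 82.1 normalized counts with ascarosides, against 157, 78.9 and 123 with ethanol (log2 fold change -0.63, adjusted p = 0.189 in limma). Control library 5 lay among the ascaroside libraries, and without it mab-10 was called (-0.90, adjusted p = 0.0221 in limma), while without control library 4 it was -0.41. mab-3, a factor of male development, had 23.6, 28.5 and 28.7 normalized counts with ascarosides, against 24.1, 2.13 and 6.72 with ethanol (log2 fold change 1.72, adjusted p = 0.147 in limma). Here control library 4 lay among the ascaroside libraries, and without it mab-3 was called (2.501, adjusted p = 0.0048 in limma), while without control library 5 it was 0.999. The remaining regulators, among them daf-12, dre-1, lin-66, puf-9, kin-20 and blmp-1, had log2 fold changes between -0.12 (tim-1) and 0.19 (puf-9).

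**Figure D5:**
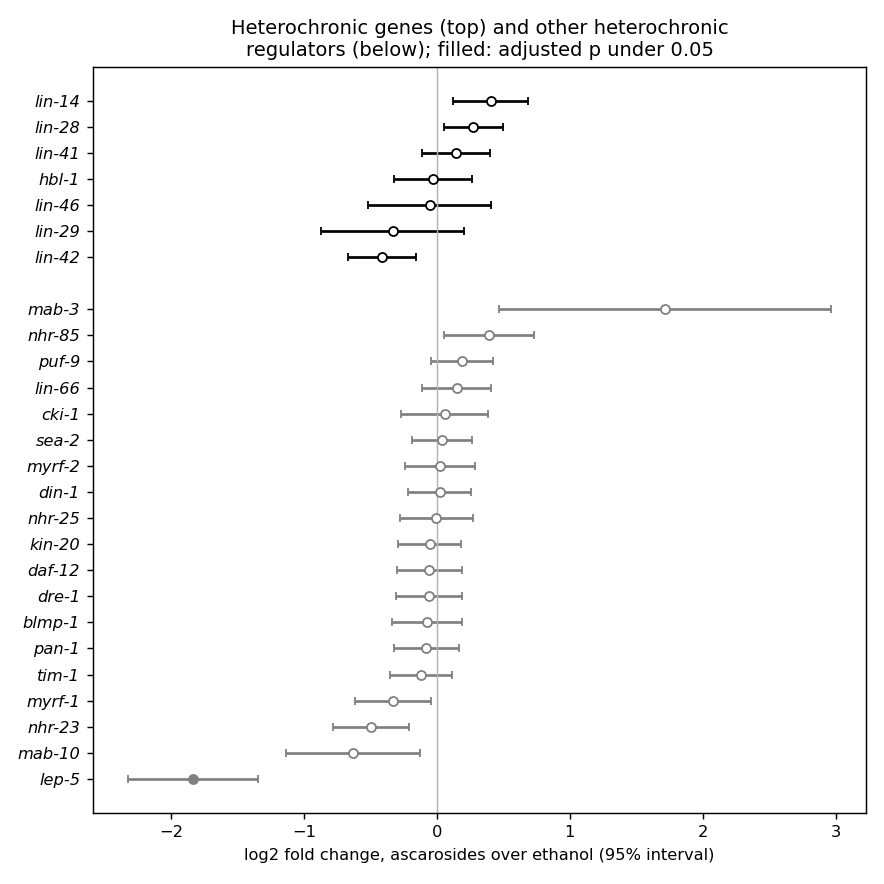
Log2 fold change (ascarosides over ethanol) with its 95% interval for the 7 heterochronic genes (black) and 19 other heterochronic regulators (grey); filled points have an adjusted p under 0.05 in limma. lep-5 at -1.84 is the one filled point, and the intervals of lin-14, lin-28 and lin-42 leave out 0.

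Genes reported downstream of the pathway gave 0 calls among the 3 tested in limma, edgeR or DESeq2, where limma called 3.52% of all tested genes. At an unadjusted p under 0.05 in limma 1 of the 3 passed, against 15.2% of all tested genes. The gene that passed was ins-33, an insulin-like gene that LIN-14 is known to repress. It had 196, 181 and 188 normalized counts with ascarosides, against 192, 318 and 292 with ethanol. Control library 4 again lay among the ascaroside libraries, as it did for lin-14. The log2 fold change was -0.47 (adjusted p = 0.188 in limma, and 0.0048 without control library 4, at -0.69). Without control library 5 it was -0.33 (adjusted p = 0.395 in limma). Leaving out any library except control library 4 gave an adjusted p of 0.378 to 0.486 in limma. The adult collagen gene col-19, a target of LIN-29, had 1 read in all 6 libraries together.

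The lateral seam cells are where most heterochronic mutants show their defects. Of 11 seam cell genes 1 was called, as higher, against 2.06% of all tested genes. It was grd-10, a hedgehog-related gene. It had 1871, 1806 and 1763 normalized counts with ascarosides, against 1279, 1436 and 1386 with ethanol (log2 fold change 0.41, adjusted p = 0.0345 in limma). All 3 ascaroside libraries were above all controls, but the call was lost with quantile normalization (adjusted p = 0.0596 in limma), without the variance trend (0.216) and without any one of ascaroside libraries 1, 2 and 3 or control library 6 (adjusted p of 0.108 to 0.209). nhr-74 had 241, 229 and 233 normalized counts with ascarosides, against 439, 247 and 402 with ethanol (log2 fold change -0.58, adjusted p = 0.0934 in limma). It was called by DESeq2 (adjusted p = 0.0356) and without control library 5 (-0.84, adjusted p = 0.00116 in limma). Without control library 4 it was -0.43 and not called (adjusted p = 0.128 in limma). Without any one of ascaroside libraries 1, 2 and 3 or control library 6 its adjusted p in limma was 0.239 to 0.330. The median of the 11 genes was 0.062.

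Because lin-42 and nhr-23 belong to the moulting cycle, 14 further moulting and cuticle genes were read beside them. In limma, edgeR and DESeq2 0 of the 14 were called, where limma called 3.52% of all tested genes. In limma 5 had an unadjusted p under 0.05, all lower, against 15.2% of all tested genes in both directions. The log2 fold change was negative for 13 of the 14, with a median of -0.14, from -0.42 for noah-1 to 0.091 for nas-36. noah-1, a protein of the apical matrix, had 4755, 6064 and 6283 normalized counts with ascarosides, against 9832, 5918 and 7500 with ethanol. It was called without control library 5 (-0.60, adjusted p = 0.0220 in limma), while without control library 4 it was -0.24 (adjusted p = 0.220 in limma). The summed level of the 14 genes was 36074 to 41683 normalized counts with ascarosides and 41142 to 57507 with ethanol, and control library 4 held the highest value for 9 of the 14, against 16.7% of all tested genes. The part of moulting phase in the values of lin-42 was not tested.

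For each of the 7 genes the profile most like it over the 6 libraries was sought among 10874 genes with a mean of at least 50, as the root mean square difference of log2 values centred on each gene's mean. With 3 libraries in each group many genes can match by chance in such a search, so the neighbours are a description. Nearest to lin-42 were lpr-4, a lipocalin-related gene (difference 0.028), and sym-1, which encodes a leucine-rich repeat protein (0.045). Nearest to lin-14 were aco-2, the mitochondrial aconitase (0.042), and a gene without a name, WBGene00012971 (0.050). Nearest to lin-28 were spg-20 (0.020) and R10E11.5 (0.025), nearest to lin-41 unc-33 (0.024) and sdc-3 (0.028), and nearest to hbl-1 gcy-32 (0.014) and dyn-1 (0.019). lin-46 was nearest to pigq-1 (0.056) and tag-234 (0.057). The profile of lin-29 had no close match, its nearest being ptr-10 (0.154) and ift-74 (0.158). None of these neighbours was one of the other 6 genes. The closest pair among the 7 was lin-41 and hbl-1, at 0.129.

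Markers fitted the label of whole larvae. The markers read for epidermis, body wall muscle, intestine, neurons and pharynx were all detected. Of the germline markers, pgl-1 and glh-1 were detected, him-3 had 0 reads in control library 6, and nos-2 had 16 reads in all. glh-1 was higher in all 3 ascaroside libraries than in all controls (log2 fold change 0.21, adjusted p = 0.370 in limma), and pgl-1 overlapped between the groups. Embryo markers summed to 0 to 4.21 normalized counts with ascarosides and 2.33 to 6.40 with ethanol, with hlh-27 at 0 reads throughout. Dauer cuticle markers (col-2, col-40 and cut-1) summed to 1.90 to 8.43 normalized counts with ascarosides and 3.36 to 4.67 with ethanol. Of the 4 markers of epidermis, the tissue that seam cells belong to, 0 were called in limma and 3 (lin-26, rol-6 and dpy-7) had an unadjusted p under 0.05 as lower, against 15.2% of all tested genes in both directions. The fourth, elt-3, was higher in all 3 ascaroside libraries than in all controls (log2 fold change 0.17, adjusted p = 0.547 in limma). The summed level of the 4 was 8324 to 8993 normalized counts with ascarosides and 9826 to 10311 with ethanol, mostly from rol-6 and dpy-7, which are also among the 14 moulting genes. Among 4 muscle and 4 pharynx markers myo-3 (0.49), hlh-1 (-0.47) and myo-1 (0.36) had an unadjusted p under 0.05, against 15.2% of all tested genes. Of these markers 0 passed the adjusted threshold in limma, where 3.52% of all tested genes did. Adult markers, mainly yolk protein genes, summed to 5.22 to 10.5 normalized counts with ascarosides and 16.3 to 21.3 with ethanol. Of 4 intestine markers 1 was called, as higher, against 2.06% of all tested genes. It was the intestinal esterase gene ges-1, with a log2 fold change of 0.78 (adjusted p = 0.00042 in limma). The other intestine markers, elt-2 (-0.17), vha-6 (0.050) and ifb-2 (0.11), overlapped between the groups and were not called. The part of these differences in tissue markers in the values of the 7 genes was not tested.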

How the data were processed

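Poly(A) RNA libraries of N2 larvae were sequenced as single reads and, per the study's methods, aligned with tophat2 to WBcel215 and counted with HTSeq-count, while the processing notes name WBcel235, so no coordinates are given. The deposited signal is gene-level read counts that the authors scaled by size factors. Each value was a whole multiple of one step per library (100% within 0.1 reads), which gave back the reads. The 5 rows for reads not assigned to a gene, at 33.1% to 41.8% of the column totals, were left out, and 0 columns were unused. Most of these reads were counted as not uniquely aligned (31.6% to 40.4% of the column totals), and such reads can come from genes. Genes were named by identifier, and let-7 by its RefSeq locus. lep-2 was not analysed here.

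The 14965 genes whose normalized counts averaged 5 or more were tested on log2(normalized count + 1) with limma 3.58.1 in R 4.3.3 (eBayes with trend, two-sided, Benjamini-Hochberg). The pseudocount shrinks folds of low counts, although mab-3 came out larger on this scale (1.72) than in edgeR (1.20). Lengths were unions of WBcel235 exons. Named genes were the 7 members, the listed microRNA genes, regulators and downstream genes, and the called or extreme genes of the other lists. The tissue markers were named after their values were seen, and profile neighbours were the 2 nearest genes per member. Members and lists were chosen with earlier results of these data known.

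Alternatives were pseudocounts of 0.5 and 5, no filter or a mean of 50 and above, upper-quartile and quantile scaling, eBayes robust or without trend, edgeR 4.0.16 and DESeq2 1.42.0 on recovered reads, and each library left out. Scripts were tested on simulated counts. Tables and plots used Python 3.11.15.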

Additional observations from a re-analysis of the deposited data

How the results depend on the processing

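All 7 genes kept their sign in the 10 alternatives that used all libraries. lin-42 passed the threshold with quantile normalization (-0.49) and DESeq2 (-0.41), which made 1 called gene of 7 in each. With one replicate left out, 0 to 2 of the 7 were called, and log2 fold changes ranged from 0.31 to 0.58 for lin-14, -0.48 to -0.32 for lin-42, -0.19 to 0.091 for lin-46, -0.19 to 0.11 for hbl-1 and -0.30 to 0.048 for let-7. Genes called in the whole table ranged from 217 to 1436 with one replicate left out, and 1 was called without the trend in eBayes.

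Of the other regulators, 2 were called with a pseudocount of 5, no filter, the robust option, edgeR or DESeq2, and 0 without the trend. Seam cell genes gave 0 with quantile normalization and without the trend, and 2 with DESeq2. Moulting genes gave 1 with quantile normalization. With one replicate left out these counts were 1 to 3, 0 to 2 and 0 to 2, and 0 to 1 each for microRNA machinery and downstream genes. The cause was not tested.

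With coding length in place of exons lin-29 (4.82) passed lin-46 (4.73 RPKM), and otherwise the order of levels held. No paired analysis was possible because library columns are numbered 1 to 6, unlike the replicates in the labels. The counts of lin-46, lin-29 and let-7 limit what could be detected for them.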
